A study of Mus musculus with 15 samples.

Results

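Septic hearts of wild-type mice, in the group labelled Min Dep, were compared with hearts of wild-type mice after sham surgery. The comparison takes 6 of the 15 arrays of the study, chosen by their titles alone: 3 arrays titled CLP Min Dep and 3 wild-type SHAM arrays. It covers all 20380 probe sets paired with 1 gene, which measure 12393 genes. Both groups were whole hearts of C57/BL6 mice, and the sources used here give neither the age nor the sex of the mice. The Min Dep mice had caecal ligation and perforation (CLP), an operation that ties off and pierces the caecum so that bowel contents leak into the abdomen. In the SHAM mice the caecum was lifted out and put back. Every mouse received buprenorphine and saline injections after surgery. At 48 hours, under ketamine and xylazine, aortic and ventricular pressures were traced by a carotid catheter, and the heart was emptied of blood and frozen. The sources used here do not say what Min Dep and Max Dep rank. The study also holds 3 wild-type CLP arrays labelled Max Dep, which are not part of the contrast but entered the authors' scaling of each probe set and the estimate of spread, and 6 arrays of mice that carry the B6.129P2-Nos2tm1Lau/J knockout, which were not used here.

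Sepsis is known to depress the pump function of the heart for days while most muscle cells survive. Reported changes in septic hearts include a shift between myosin isoforms, weaker release and reuptake of calcium, less use of fatty acids, injured mitochondria and entry of white blood cells from the circulation. The endoplasmic reticulum, where secreted and membrane proteins fold, responds to overload by making more chaperones through the transcription factors XBP1 and ATF6.

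The values have no expression level. They are in standardised units: each probe set was centred on its average over the 9 wild-type arrays and divided by its SD, after which each array was itself scaled linearly. A value of 1 therefore means about 1 SD above that probe set's own average, and no difference below can be read as a fold change or compared in size between genes as one would compare abundances. How large a difference can become depends on the Max Dep arrays too. With the array scaling undone, the largest possible difference between 2 groups of 3 is 2.31 units where the third group lies midway and 2.0 where the third group lies with Min Dep. Presence or absence of a cell type's markers cannot be read from such values either. The labels do not say whether arrays of a group came from separate animals beyond giving each its own code, so p-values measure the spread between these samples, which may be technical. Across all probe sets the sham arrays correlated with each other at r of 0.15 to 0.27 and the Min Dep arrays at -0.11 to 0.01. Sham replicate 1 stood apart in sex-linked genes, with Xist at 2.66 against -0.26 and -0.24 in the other sham arrays. Control probe sets at the 5' end of Gapdh and Actb minus those at the 3' end, a rough guide to RNA integrity, gave 0.55, 0.39 and 1.76 in sham and 0.07, -0.08 and -0.56 in Min Dep hearts. These averages of the 2 controls do not overlap between the groups. For Actb alone the groups overlap (-0.25, 0.12 and 1.71 in sham; -0.51, -0.4 and 0.19 in Min Dep). For Gapdh alone the lowest sham value, 0.66, lay just above the highest Min Dep value, 0.64.

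In Min Dep hearts 26 probe sets were higher and 86 lower than in sham hearts, 112 of 20380 or 0.55% (limma, unmoderated statistics, Benjamini-Hochberg adjusted p under 0.05). The rises (0.128% of the probe sets) belonged to 26 genes and the falls (0.422%) to 79 genes. In all 112 the 3 Min Dep and 3 sham values did not overlap, with a gap of 1.01 to 2.31 units between the groups. Such separation alone was common, in 5014 probe sets or 24.6% of all (10.5% higher and 14.1% lower in Min Dep). What set the called ones apart was a small spread within groups, with SEs of 0.12 to 0.32 against a median of 0.78 over all probe sets. Their adjusted p-values lay between 0.0312 and 0.0498, and 3542 probe sets (17.4%) had an unadjusted p under 0.05, 7.31% higher and 10.1% lower. The median difference over all probe sets was 0.12 units, or 0.27 with the array scaling undone.

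The number of calls depended on the fit. With eBayes moderation 0 probe sets passed (3777 at an unadjusted p under 0.05), with the 6 arrays alone 3, and with the mean of each gene's probe sets 7 genes of 12393. Leaving out sham replicate 1, 2 or 3 gave 0 calls each time, and leaving out Min Dep replicates 1, 2 and 3 gave 2, 37 and 0. Without Max Dep replicates 1, 2 and 3, whose values only set the spread, 3, 66 and 16 passed. Adding the averaged 5' to 3' measure to the model left 0 calls (3021 at an unadjusted p under 0.05). In this contrast the measure went together with surgery, since sham and Min Dep averages do not overlap. Among the CLP hearts outside the contrast, Max Dep replicate 2, at 0.53, lay within the sham range of 0.39 to 1.76. The part of the measure in the differences was not tested. For any one probe set, an exact permutation test of 3 against 3 arrays cannot give a two-sided p below 0.1.

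**Figure D1:**
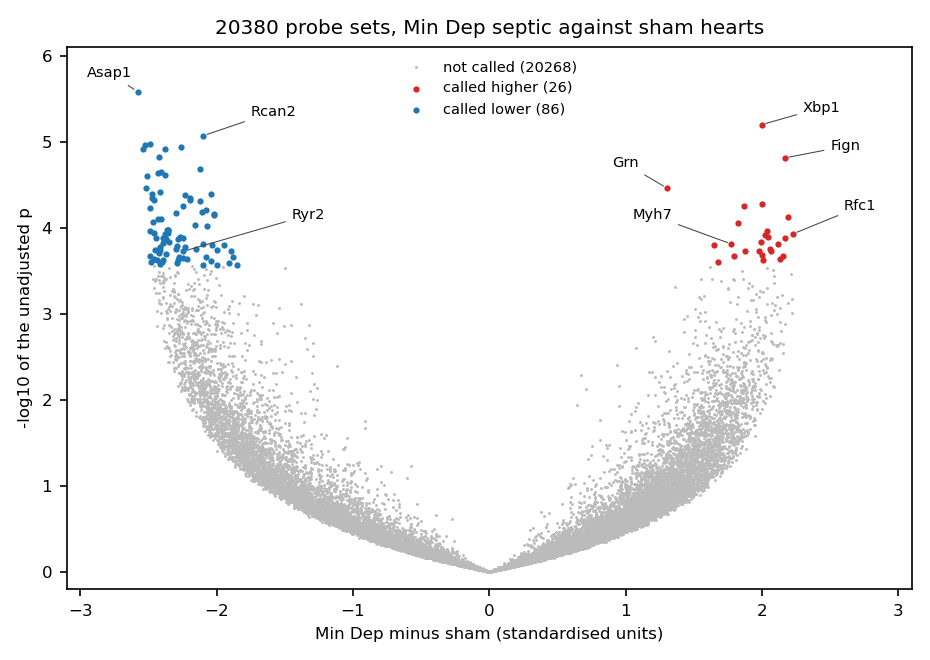
Difference between Min Dep and sham hearts (x axis, standardised units) against -log10 of the unadjusted p (y axis) for the 20380 probe sets, 1 point each, with the 26 called higher in red and the 86 called lower in blue. The points fill a cup because each probe set was scaled to the same SD; the called ones reach -2.58 on the left (Asap1) and 2.23 on the right (Rfc1), and Xbp1 and Fign stand highest among the rises.

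**Figure D2:**
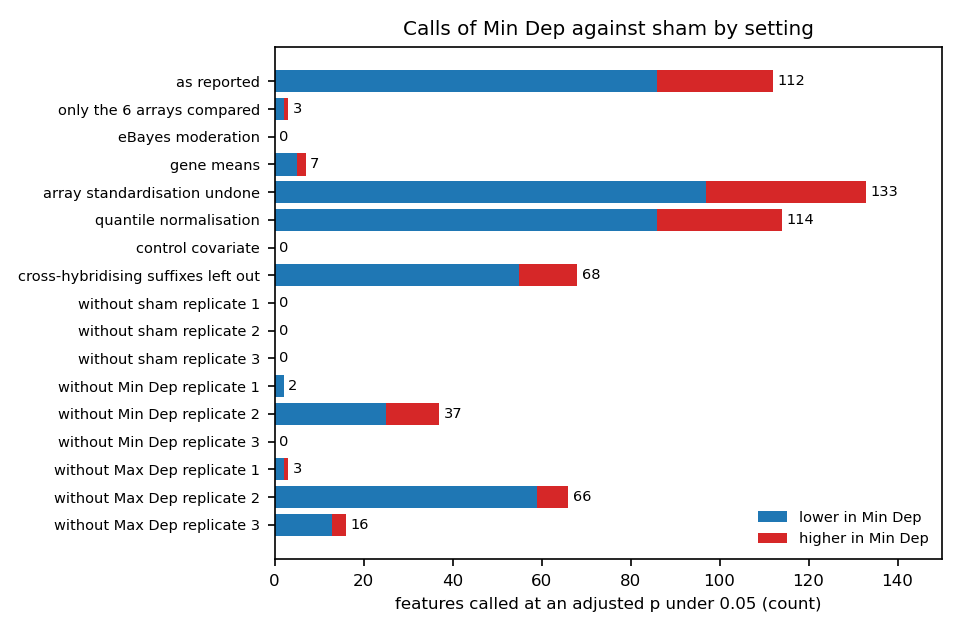
Number of features called (x axis) under each setting, with falls in blue and rises in red; features are probe sets, except genes for gene means. The reported fit gives 112, 2 rescalings of the arrays give 133 and 114, and 6 settings give 0.

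The deepest fall was in Asap1, which encodes a GTPase-activating protein of Arf at adhesion sites. Its probe set was at 1.23, 1.31 and 1.38 in sham hearts and at -0.99, -1.51 and -1.32 in Min Dep hearts, a difference of -2.58 ± 0.15 (SE; adjusted p = 0.0312). The Min Dep hearts were all far below every sham heart. S100a10 followed, with 1.36, 1.46 and 0.84 in sham and -1.11, -1.32 and -1.54 in Min Dep hearts (-2.54 ± 0.19, adjusted p = 0.0312). Its protein forms a complex with annexin A2, and Anxa2 was itself among the 15 deepest falls (-2.48 ± 0.32, adjusted p = 0.0482), with sham values of 1.02, 1.71 and 1.16 and Min Dep values of -1.05, -0.88 and -1.62. Anxa2 has 3 probe sets and 1 of them lay the other way, at 0.67.

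Genes of quite different duties made up the rest of the deepest falls. Synj2bp (-2.53 ± 0.19) encodes an anchor protein of the outer mitochondrial membrane, and Mtx2 (-2.46 ± 0.24) encodes metaxin 2 of the same membrane, which helps import proteins. Dbi (-2.51 ± 0.23) encodes the acyl-CoA binding protein, and its other 3 probe sets were separated in the same direction. Mcts1 (-2.51 ± 0.22), a factor of translation re-initiation on the X chromosome, had the widest gap of all, 2.31 units between its lowest sham value of 1.15 and its highest Min Dep value of -1.16. Pgk1, the glycolytic phosphoglycerate kinase and also X-linked, fell in 2 of its 3 probe sets (-2.49 ± 0.28 and -2.45 ± 0.30), and the third lay at -2.12. Tmem100 (-2.49 ± 0.19) encodes a membrane protein of endothelium and Tppp3 (-2.49 ± 0.25) a tubulin-binding protein. Stbd1 (-2.46 ± 0.28) carries glycogen to lysosomes, Noct (-2.47 ± 0.23) encodes the rhythmic protein nocturnin, and Ski (-2.46 ± 0.26) a repressor of SMAD signalling. Nus1 (-2.49 ± 0.31), needed to make dolichol, and Dpysl4 (-2.48 ± 0.24) complete the 15. Of the 86 falls, 8 were X-linked, and no rise was. That is 7.14% of all 112 calls against 3.28% of the probe sets tested. Sham replicate 1, whose Xist was high, is 1 of the 3 arrays on the sham side, and its part in the X-linked falls was not tested.

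The largest rise was in Rfc1, the large subunit of the clamp loader of DNA replication and repair. It was at -1.60, -1.16 and -1.12 in sham hearts and at 0.44, 1.16 and 1.21 in Min Dep hearts (2.23 ± 0.25, adjusted p = 0.0453). The highest sham heart lay 1.56 units under the lowest Min Dep heart. Fign, which encodes the microtubule-severing enzyme fidgetin, had the tightest Min Dep values among the 15 leading rises, 0.97, 0.90 and 0.86, against -1.56, -1.18 and -1.02 in sham (2.17 ± 0.17, adjusted p = 0.0315). Cln6, a gene of the endoplasmic reticulum membrane, rose by 2.19 ± 0.23. Aak1, the kinase of a clathrin adaptor, rose by 2.17 ± 0.25, Vps53 of a Golgi tethering complex by 2.15 ± 0.27 and Lyst, the regulator of lysosome size, by 2.13 ± 0.27. The homeobox gene Meis1 rose by 2.12 ± 0.25, the carnosine synthase gene Carns1 by 2.04 ± 0.23, the histone variant gene Macroh2a3 by 2.04 ± 0.23 and the condensin gene Ncaph2 by 2.02 ± 0.23. Arhgap9 rose by 2.00 ± 0.25, and Dbil5 by 2.07 ± 0.25. The transcript A530058N18Rik rose by 2.06 ± 0.25.

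Other probe sets of the same gene did not always follow. The 4 other probe sets of Tmsb10, thymosin beta 10, all had negative differences although 1 probe set rose by 2.00 ± 0.20, and neither of the 2 other Lyst probe sets had a positive one. Besides Anxa2, the leading falls Synj2bp, Nus1 and Dpysl4 had probe sets of opposite sign, reaching 1.28, 1.32 and 0.08. So did the leading rises Ncaph2, Vps53, Dbil5 and Aak1, reaching -0.8, -0.6, -0.16 and -0.1. The called genes have 151 other probe sets in 79 genes. Of these, 116 (76.8%) shared the sign of the called one and 64 were also separated between the groups, against 60.8% of all pairs of probe sets of 1 gene in the table. In 7 genes 2 probe sets were called: Pgk1, Vim, Prepl, Ccng1, Opa1, Twsg1 and Serinc1. A suffix letter, which in most cases marks possible binding of other transcripts, is carried by 41 of the 112.

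**Figure D3:**
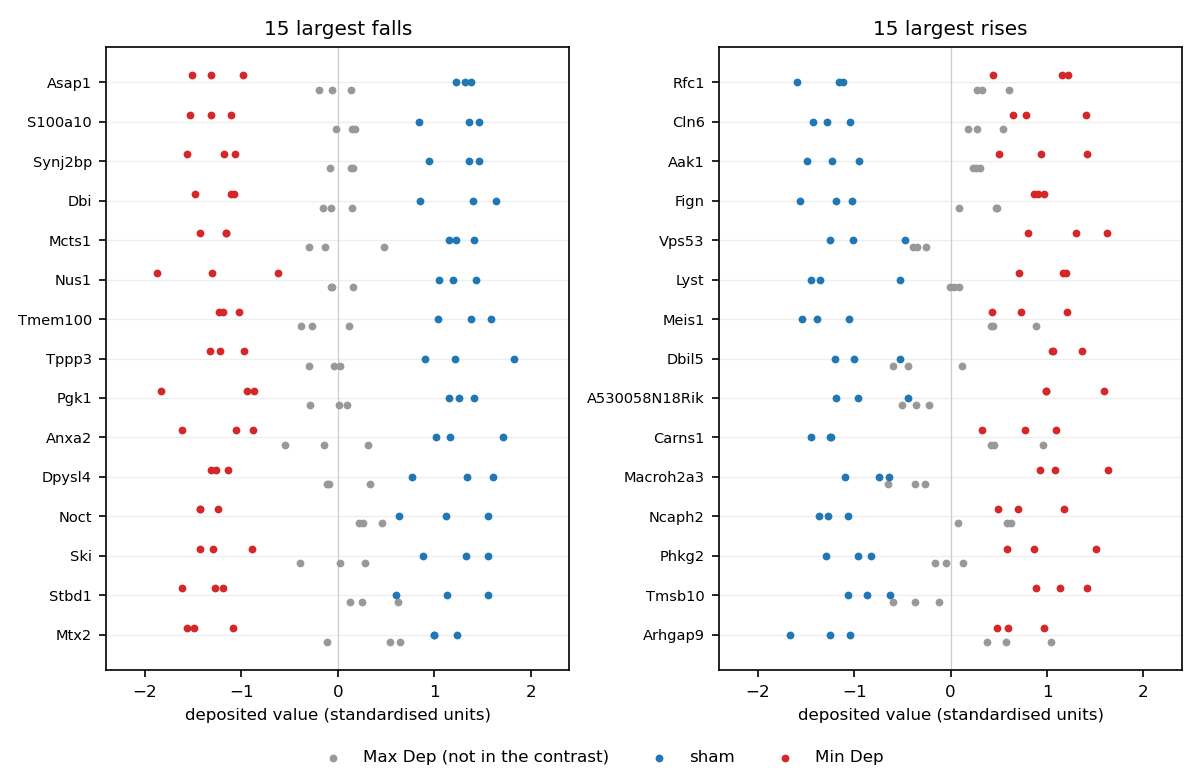
Deposited value on each array (x axis, standardised units) for the 15 largest falls (left) and the 15 largest rises (right), 1 row per probe set and 1 point per array. The rows were chosen as called, separated and largest in difference, so sham points (blue) and Min Dep points (red) cannot overlap in these 30 rows. The grey Max Dep points lie mostly between them, where the scaling allows the largest differences.

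Among genes of the sarcomere, Myh7, the slow beta myosin heavy chain that adult mouse ventricle expresses little of, rose. Its single probe set was at -1.25, -1.33 and -1.44 in sham and at 0.52, -0.01 and 0.80 in Min Dep hearts, a difference of 1.78 ± 0.21 (adjusted p = 0.0453). All Min Dep hearts lay above all sham hearts, by 1.24 units at the nearest. The adult alpha myosin gene Myh6 did not pass, and its 2 probe sets disagreed (-1.85 ± 0.47 and 0.51 ± 0.79). Ryr2, the calcium release channel of the sarcoplasmic reticulum, fell on 1 of its 2 probe sets. There the sham hearts were nearly identical at 1.43, 1.39 and 1.39 and the Min Dep hearts were at -1.16, -0.54 and -0.82 (-2.25 ± 0.28, adjusted p = 0.0453). The other Ryr2 probe set was separated in the same direction without passing (-1.88 ± 0.58, adjusted p = 0.187).

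Fkbp1a encodes FKBP12, an immunophilin that binds calcium release channels. It fell on 1 of 5 probe sets, from 1.46, 0.96 and 0.77 in sham to -1.31, -0.97 and -1.77 in Min Dep hearts (-2.42 ± 0.29, adjusted p = 0.0453), and the other 4 had negative differences of -1.85 to -0.43. Cacna2d1, the alpha2delta subunit of the L-type calcium channel, fell by 2.11 ± 0.22 units (1.48, 1.37 and 1.37 in sham; -1.19, -0.50 and -0.42 in Min Dep). It is in none of the gene lists and was singled out after its values were seen. Among beta-adrenergic genes Arrb2, which encodes the receptor-silencing beta-arrestin 2, rose from -1.59, -1.25 and -1.23 to 0.29, 0.47 and 0.65 (1.83 ± 0.20, adjusted p = 0.0453). Pdlim5, a scaffold of the Z-disc, fell on 1 of 7 probe sets (-2.39 ± 0.28), and the other 6 differences were all negative.

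As lists, these genes were mixed. Over all probe sets 10.5% were separated upward and 14.1% downward. Of 48 probe sets of calcium handling, 1 was called higher (Calr, described with the chaperones) and 2 lower, 10 (20.8%) were separated upward and 16 (33.3%) downward, and the median was -0.39. The sarcoplasmic calcium pump Atp2a2 had 4 probe sets between -1.37 and 1.56, and its inhibitor Pln 3 between -0.60 and 1.82, none called. Sarcolipin (Sln), another inhibitor of the pump, was separated upward on both probe sets (2.13 ± 0.48 and 1.89 ± 0.62, adjusted p = 0.116 and 0.208). Of 45 sarcomere and Z-disc probe sets 1 was called in each direction, with 7 (15.6%) separated upward and 16 (35.6%) downward (median -0.20), and cardiac troponin C (Tnnc1) at -2.27 ± 0.38 had an adjusted p of 0.0678. The natriuretic peptide genes Nppa (0.50 ± 0.99) and Nppb (-1.39 ± 0.85), classic signs of load on the heart wall, did not pass and overlapped between groups.

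**Figure D4:**
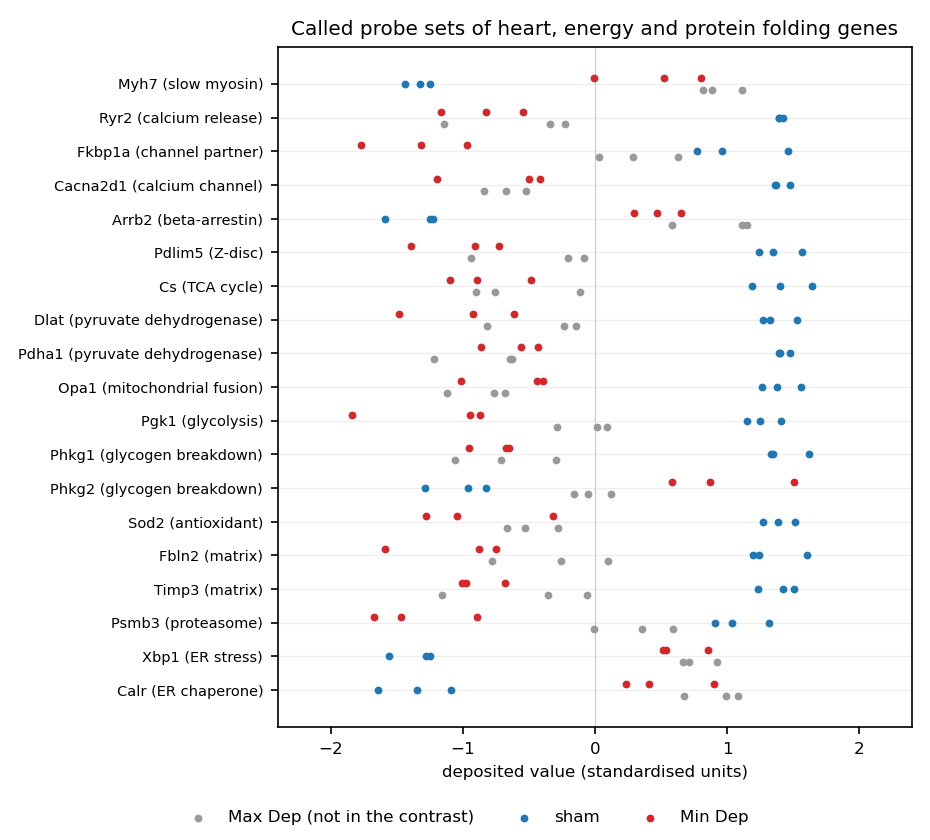
Deposited value on each array (x axis, standardised units) for 19 called probe sets of heart, energy, matrix and protein folding genes, 1 point per array. As in all 112 calls, the sham points (blue) sit on 1 side of every row and the Min Dep points (red) on the other. Examples are Ryr2 (sham 1.39 to 1.43) and Myh7 (sham -1.44 to -1.25).

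Pyruvate oxidation and the tricarboxylic acid cycle lay lower in Min Dep hearts with few exceptions. Of 39 probe sets, 3 fell, none rose, 23 (59%) were separated downward and 2 upward, and the median was -1.61. Among all probe sets 0.422% fell, 14.1% were separated downward and 10.5% upward. Dlat and Pdha1 encode subunits of pyruvate dehydrogenase, the enzyme that feeds pyruvate into the cycle. Dlat went from 1.27, 1.32 and 1.53 in sham to -0.62, -0.92 and -1.48 in Min Dep hearts (-2.38 ± 0.28, adjusted p = 0.0453). Pdha1 went from 1.39, 1.40 and 1.48 to -0.86, -0.43 and -0.56 (-2.04 ± 0.19, adjusted p = 0.0385), and its second probe set overlapped between groups (-1.04 ± 0.71). The Cs gene for citrate synthase, the entry enzyme of the cycle, went from 1.19, 1.64 and 1.40 to -1.10, -0.48 and -0.90 (-2.23 ± 0.27, adjusted p = 0.0453). In each of these 3 the sham hearts were all above 1 and the Min Dep hearts all below 0. Idh3a, an isocitrate dehydrogenase subunit, missed narrowly on the lowest of its 3 probe sets (-2.35 ± 0.31, adjusted p = 0.0504). The exceptions were Idh3g on the higher of its 2 probe sets (2.01 ± 0.42) and Idh2 (1.88 ± 0.49), neither of which passed. The mean over the list's probe sets was 0.69, 0.84 and 0.73 in sham and -0.73, -0.10 and -0.51 in Min Dep hearts.

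Other mitochondrial and fuel genes moved less uniformly. For comparison, 0.55% of all probe sets were called, 14.1% were separated downward and 10.5% upward. Opa1, which encodes the fusion protein of the inner mitochondrial membrane, fell on both of its probe sets (-2.15 ± 0.26 and -2.02 ± 0.21). They were the 2 calls among 46 probe sets of mitochondrial dynamics and import, with 17 (37%) separated downward and 7 (15.2%) upward. Sod2, the mitochondrial superoxide dismutase, was at 1.28, 1.52 and 1.38 in sham and -1.28, -0.32 and -1.04 in Min Dep hearts (-2.27 ± 0.26, adjusted p = 0.0453), and its other 2 probe sets were also separated downward. It held the 1 call among 43 antioxidant probe sets, with 15 (34.9%) separated downward and 3 (6.98%) upward. For fatty acid uptake and oxidation 0 of 42 probe sets were called, with 22 separated downward and 3 upward (median -1.29, or -0.85 without Min Dep replicate 1). Pdk4, the kinase that switches pyruvate dehydrogenase off, was at -2.22 ± 0.33 (adjusted p = 0.0595), and the uncoupling protein gene Ucp3 at -1.59 ± 0.28 and -1.5 ± 0.27. Complex I of the respiratory chain had 27 of 67 probe sets separated downward and 5 upward (median -1.0), and complexes III and IV with ATP synthase 20 and 4 of 66 (median -0.25), with 0 called in both. The regulators of mitochondrial genes also did not pass: Ppargc1a was negative on all 5 probe sets (-2.12 to -0.86) and Ppara was at -1.34 ± 0.83.

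Phosphorylase kinase, which activates glycogen breakdown, gave calls in opposite directions. The Phkg1 probe set, for the catalytic subunit typical of muscle, fell from 1.35, 1.33 and 1.62 to -0.95, -0.67 and -0.65 (-2.19 ± 0.21, adjusted p = 0.0385). Phkg2, for the catalytic subunit known from liver and testis, rose from -1.29, -0.96 and -0.82 to 1.5, 0.87 and 0.59 (2.01 ± 0.26, adjusted p = 0.0475). In both genes the groups were clear of each other. Of the 31 probe sets of the glycogen list, these 2 included, 10 were separated downward and 1, Phkg2, upward (median -0.62), and no other one passed. Of 37 glycolysis and glucose uptake probe sets the 2 of Pgk1 fell, with 12 (32.4%) separated downward and 6 (16.2%) upward (median -0.68). On the highest of its 4 probe sets, lactate dehydrogenase B (Ldhb) lay the other way at 1.93 ± 0.30 (adjusted p = 0.0651). Over all probe sets 14.1% were separated downward and 10.5% upward.

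Chaperones and folding enzymes of the endoplasmic reticulum lay higher in Min Dep hearts. Of 56 probe sets, 2 rose, none fell, 23 (41.1%) were separated upward and 6 downward, with a median of 1.02. Among all probe sets 0.128% rose, 10.5% were separated upward and 14.1% downward. The list's mean was -0.43, -0.43 and -0.42 in sham and 0.09, 0.47 and 0.27 in Min Dep hearts. Xbp1, the transcription factor of this response, rose from -1.56, -1.24 and -1.28 to 0.54, 0.85 and 0.52 (2.00 ± 0.14, adjusted p = 0.0312), and its other 3 probe sets were separated upward too (1.51 to 2.02). Calr, the calcium-binding chaperone calreticulin, rose from -1.64, -1.09 and -1.35 to 0.24, 0.41 and 0.90 (1.88 ± 0.23, adjusted p = 0.0453), with its other 2 at 1.65 and 1.76. Below the threshold but separated were the stromal factor gene Sdf2l1 (1.99 ± 0.51), the chaperone genes Hspa5 (1.73 ± 0.45 and 1.53 ± 0.58) and Hsp90b1 (1.65 ± 0.53 and 1.53 ± 0.71), and Dnajb11 (1.91 ± 0.37). The stress sensor Eif2ak3 differed in sign between its probe sets, the lowest at -1.89 ± 0.67.

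Promoters of this list were searched, after these values were seen, for the endoplasmic reticulum stress element, known to bind NF-Y and ATF6. It was written as CCAAT and CCACG with 9 bases of any kind between them, on either strand. It occurred in 7 of the 23 windows found for the list's 26 genes (30.4%) and in 39 of 32851 windows of all genes (0.119%), each window running from 250 bases before the start of transcription to 50 after it (RefSeq, GRCm38.p6). The 7 genes are Calr, Canx, Creld2, Dnajc3, Hsp90b1, Hspa5 and Pdia6. Of their 18 probe sets 13 were separated upward and none downward (median 1.53), against 8 upward and 6 downward of 33 in the 16 genes without a match (median 0.68), Xbp1 among them. Among all probe sets 10.5% were separated upward and 14.1% downward. The list was drawn up as genes of this stress response, so its larger share of matches is no result of these hearts. The split by match was made after the values were seen and was not tested. A match describes letters and not use of a site. The 250 bases before the start are shown, 5' to 3' on the gene's strand with the element in capitals, for called Calr (chr8:84846932-84847181, minus strand), where it is inverted, for Hspa5 (chr2:34771840-34772089, plus strand), and for Hsp90b1 (chr10:86705445-86705694, minus strand), which holds it in both orientations.
Calr: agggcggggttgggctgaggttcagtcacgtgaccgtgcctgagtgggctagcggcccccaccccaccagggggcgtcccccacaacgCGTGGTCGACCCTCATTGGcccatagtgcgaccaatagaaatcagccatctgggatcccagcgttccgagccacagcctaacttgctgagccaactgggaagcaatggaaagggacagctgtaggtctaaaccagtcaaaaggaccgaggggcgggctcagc
Hspa5: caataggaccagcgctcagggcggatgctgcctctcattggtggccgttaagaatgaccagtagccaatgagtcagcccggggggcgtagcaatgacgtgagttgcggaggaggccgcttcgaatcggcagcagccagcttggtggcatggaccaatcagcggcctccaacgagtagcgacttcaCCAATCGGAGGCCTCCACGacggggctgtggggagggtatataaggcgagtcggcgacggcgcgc
Hsp90b1: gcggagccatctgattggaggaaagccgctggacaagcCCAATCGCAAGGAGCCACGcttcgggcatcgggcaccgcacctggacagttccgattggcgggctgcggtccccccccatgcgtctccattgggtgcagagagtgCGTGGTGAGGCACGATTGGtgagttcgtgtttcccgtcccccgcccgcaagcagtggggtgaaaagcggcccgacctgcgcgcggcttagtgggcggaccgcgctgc

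Cytosolic ribosomal protein genes lay almost wholly on 1 side. Of 88 probe sets 42 (47.7%) were separated upward and 1 downward, against 10.5% and 14.1% of all probe sets. The median was 1.09, and 0 were called, against 0.55% of all probe sets. The list mean was -0.86, -0.59 and -0.93 in sham and 0.02, -0.11 and 0.42 in Min Dep hearts, so that the groups did not overlap. Rps10 came nearest on 1 of its 6 probe sets, another of which lay at -1.0 (2.01 ± 0.30, adjusted p = 0.0607). With probe sets that carry a suffix letter left out the list's median was 0.68. Proteasome subunits showed no common direction (median 0.15), with 1 of 66 probe sets called. That was Psmb3, a subunit of the core, at 1.04, 1.32 and 0.91 in sham and -1.67, -0.89 and -1.47 in Min Dep hearts (-2.43 ± 0.26, adjusted p = 0.0429), while its second probe set was at -0.04 ± 0.74.

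Macrophage and monocyte markers lay higher in Min Dep hearts. All 29 macrophage and monocyte probe sets but 1 had a positive difference, and the median was 1.29. Upward separation was seen in 15 (51.7%) and downward in none, against 10.5% and 14.1% of all probe sets. None was called. In whole hearts a larger number of such cells and more RNA per cell cannot be told apart, and the same holds for every list that follows. Tyrobp, a signalling adaptor of myeloid receptors, was at 1.62 ± 0.21 (adjusted p = 0.0501), and Fcer1g, an adaptor of Fc receptor signalling, at 1.79 ± 0.25 (adjusted p = 0.0544). Adgre1, a surface antigen gene that marks mouse macrophages, was at 1.67 ± 0.34 and the complement gene C1qa at 1.64 ± 0.35. The list mean was -1.20, -0.43 and -1.13 in sham and 0.16, 0.62 and -0.17 in Min Dep hearts. Grn, which encodes progranulin, rose by 1.30 ± 0.12 with the smallest SE of the 112. Cd180, a relative of the toll-like receptors on B cells and macrophages, rose by 1.80 ± 0.23. Neither gene is in a list, and both were singled out after their values were seen.

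Neutrophil markers also lay higher for the most part, 12 of 15 probe sets being positive, 6 separated upward and none downward. Mpo, myeloperoxidase of the granules, was highest (2.11 ± 0.36, adjusted p = 0.0695), followed by the calprotectin genes S100a9 (1.52 ± 0.30) and S100a8 (1.51 ± 0.28). Lcn2 overlapped between groups (1.31 ± 0.62), and Ltf lay at -1.19 ± 0.91. The median was 1.04, or 0.59 without Min Dep replicate 1, and 0 were called. Markers of T and natural killer cells had 0 of 16 probe sets separated upward (median 0.31, or -0.50 without Min Dep replicate 2) and those of B cells 2 of 21 (median 0.70), against 10.5% of all probe sets. The list mean for B cells was 1.09 in Min Dep replicate 2 against 0.23 and 0.16 in the other Min Dep hearts. Interferon response genes had 0 of 29 probe sets separated upward (median 0.28), and chemokines and cytokines 3 of 26 (median 0.25). Nos2, the inducible nitric oxide synthase and the gene deleted in the study's knockout mice, overlapped between groups (0.60 ± 0.75, adjusted p = 0.728).

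Genes of MHC class II ran against the macrophage list. Their median was -1.73 over 11 probe sets, of which 9 were negative and 0 were called, and it was -0.77 with probe sets that carry a suffix letter left out. The 3 separated downward (27.3%, against 14.1% of all probe sets) all measure H2-Ab1, the lowest at -1.94 ± 0.51 (adjusted p = 0.144). Ctss, a protease of antigen processing that is also in the macrophage list, was separated upward (1.09 ± 0.51).

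Matrix genes and the cells that make matrix lay lower. Of 70 probe sets of matrix glycoproteins and remodelling, 2 fell, none rose, 48 (68.6%) were separated downward and 2 upward, and the median of -1.88 was the lowest of the 49 lists. Among all probe sets 0.422% fell, 14.1% were separated downward and 10.5% upward. Fbln2, an elastic-fibre protein of vessel walls and valves, fell from 1.24, 1.61 and 1.19 to -0.88, -0.75 and -1.59 (-2.42 ± 0.32, adjusted p = 0.0487). Timp3, the matrix-bound inhibitor of metalloproteinases, fell on 1 of its 4 probe sets, from 1.23, 1.42 and 1.51 to -0.68, -0.98 and -1.0 (-2.27 ± 0.29, adjusted p = 0.0475). Its other 3 probe sets were separated too, at -2.30 to -2.27, with larger SEs.

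Collagens had 14 of 28 probe sets separated downward and none upward (median -1.76), against 14.1% and 10.5% of all probe sets. None was called, and Col8a1 was at -2.28 ± 0.31 on the lower of its 2 probe sets (adjusted p = 0.0534). Fibroblast markers had 10 of 20 separated downward (median -1.76) and markers of smooth muscle and pericytes 14 of 22 (median -1.79), again with 0 called. No fibroblast probe set was separated upward, and 1 of smooth muscle and pericytes was, for desmin, Des (1.64 ± 0.51). The lowest were Mfap5 (-2.28 ± 0.36) and Dpt (-2.27 ± 0.50) of fibroblasts, and Cspg4 (-2.31 ± 0.35) and Rgs5 (-2.19 ± 0.44) of pericytes. Lum was at -2.09 ± 0.51, and Col1a1 at -1.82 ± 0.73 and -0.83 ± 0.88. Min Dep replicate 2 was nearest to sham in these lists: the collagen mean was 0.42 there against -0.91 and -1.26 in the other Min Dep hearts, and the fibroblast mean 0.34 against -0.63 and -1.53. Further matrix and mesenchymal genes outside the lists were called and are named after their values were seen: Aspn (-2.38 ± 0.18), Sdc2 (-2.37 ± 0.28), Aebp1 (-2.07 ± 0.23) and vimentin, Vim, on 2 of 3 probe sets (-2.4 ± 0.31 and -2.29 ± 0.29).

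Endothelial markers divided. Of 27 probe sets 5 (18.5%) were separated upward, led by the VEGF receptor gene Kdr (1.98 ± 0.45), and 6 (22.2%) downward, led by the adrenomedullin receptor partner Ramp2 (-2.26 ± 0.53), with 0 called. Over all probe sets the shares were 10.5% upward and 14.1% downward. The list of leukocyte adhesion and coagulation control had 9 of 18 separated downward and none upward (median -0.98, or -0.62 without Min Dep replicate 2 and likewise without replicate 3). Its lowest were thrombomodulin, Thbd (-2.27 ± 0.56), and tissue plasminogen activator, Plat (-2.13 ± 0.53), neither of which passed. F2r, the thrombin receptor gene, fell (-2.00 ± 0.24) and was singled out after its values were seen.

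Targets of glucocorticoid hormones, the stress steroids of the adrenal gland, lay lower in Min Dep hearts. Of 41 probe sets 31 were negative and 0 were called (median -1.19). Downward separation was seen in 16 (39%) and upward in 1, against 14.1% and 10.5% of all probe sets. The list mean was 0.02, 0.46 and 0.23 in sham and -0.48, -1.02 and -0.52 in Min Dep hearts, groups that did not overlap. Tsc22d3, a classic target known as GILZ, was at 1.0, 1.38 and 1.01 in sham and -1.34, -1.28 and -1.05 in Min Dep hearts (-2.35 ± 0.42, adjusted p = 0.0761). That was the lowest of its 3 probe sets. Errfi1, an inhibitor of growth factor receptors, lay at -2.22 ± 0.56 on the lower of its 2 probe sets (adjusted p = 0.135). The highest was Tat, a liver enzyme gene, which overlapped between groups (1.32 ± 0.79).

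**Figure D5:**
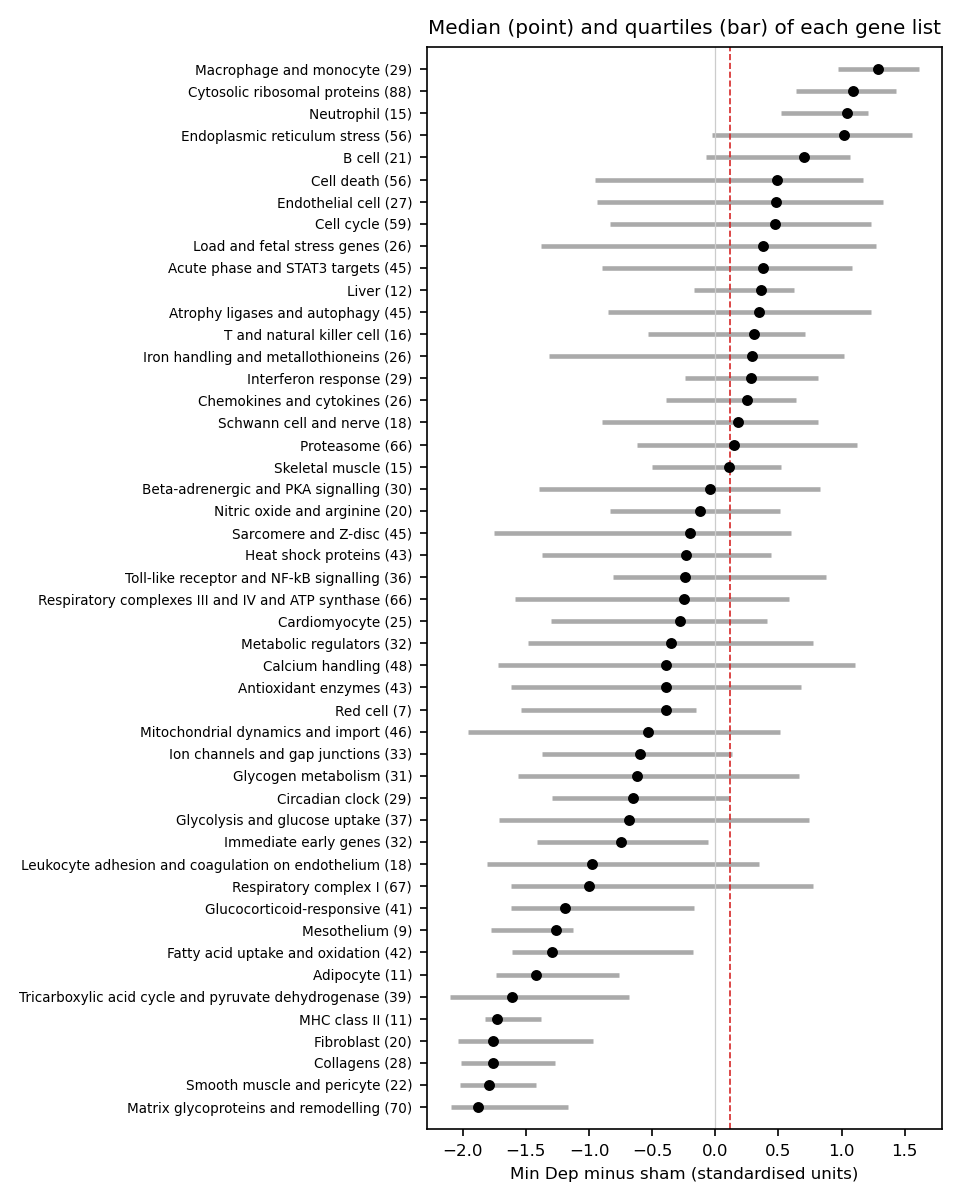
Median (point) and quartiles (bar) of the Min Dep minus sham difference (x axis, standardised units) over the probe sets of each gene list, number of probe sets in brackets; the dashed red line is the median of all probe sets, 0.12. Macrophage, ribosomal, neutrophil and endoplasmic reticulum lists lie at the top with medians above 1, and matrix, smooth muscle, collagen, fibroblast and MHC class II lists at the bottom.

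The mean of the Max Dep hearts lay between sham and Min Dep for 83 of the 112 probe sets, beyond Min Dep for 26 and on the far side of sham for 3: F2r, Pon2 and Cd180. It lay between them for 74.1% of the calls, 55.2% of all separated probe sets and 33.7% of all probe sets, and since the scaling allows the largest differences where the third group lies midway, these shares are a description only. Pon2, which encodes paraoxonase 2, was at 0.19, 0.65 and 1.01 in sham, -1.35, -1.61 and -1.49 in Min Dep and 0.82, 0.71 and 1.29 in Max Dep hearts. The other Pon2 probe set lay the other way between Min Dep and sham, at 0.88. The direct test of Max Dep against Min Dep called 0 of 20380 probe sets (limma, unmoderated; 1979 at an unadjusted p under 0.05; 0 with eBayes). The difference for Pon2 was 2.42 ± 0.25 (adjusted p = 0.143), for F2r 2.39 ± 0.24 (adjusted p = 0.143) and for Cd180 -1.84 ± 0.23 (adjusted p = 0.223). These differences share the Min Dep arrays with the contrast that chose the genes. No called probe set is therefore shown to be particular to Min Dep hearts, and a p that misses the threshold does not show that the septic groups were alike.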

How the data were processed

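Whole-heart RNA had been hybridised to short oligonucleotide arrays, and 6 of the 15 arrays were compared. The deposited value table of the 9 wild-type arrays holds standardised scores made by the authors. Each array has a mean of 0 and an SD of 1, and undoing 1 linear step per array brings the SD of each of the 22690 probe sets over the arrays to 1.0. The sources used here do not say how. They keep no signal over background, so precision is limited by the number of arrays. Of 22626 probe sets without controls, 20380 have 1 gene symbol in the platform annotation, 691 several and 1555 none.

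Groups came from the titles, and replicate numbers only name arrays. A linear model with the 3 groups was fitted to all 9 wild-type arrays (limma 3.58.1, R 4.3.3; 6 residual degrees of freedom), with unmoderated statistics, two-sided p-values and Benjamini-Hochberg adjustment over 20380 probe sets at 0.05. Named genes are the 15 largest called differences in each direction, called and extreme members of 49 gene lists, and a fixed set; exceptions are marked in the text. The members, lists, unit and unmoderated statistics were chosen with earlier results of these data known, including that gene means gave 7 calls and moderation none. A list is described by counts and medians beside those of all probe sets, with no test of its own. Of 976 list genes 862 were measured, after wrong synonym matches were removed. Promoter windows came from RefSeq. Tables and figures were made with pandas 2.3.3 and matplotlib 3.10.9. The fit was also run on simulated tables with large differences planted in Min Dep alone, as a check of the code and of the sign. Max Dep was drawn like sham there, unlike in most calls here. That run therefore does not bear on how reliable the calls are. The knockout arrays were not used here.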

Additional observations from a re-analysis of the deposited data

How the results depend on the processing

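The count of calls (112) moved to 3 with the 6 arrays alone, 0 with eBayes moderation, 7 with gene means, 0 with the control covariate and 68 of 14098 probe sets without suffix letters, and ranged from 0 to 66 when 1 array was left out. Calls within the gene lists (20) moved to 0, 0, 3, 0 and 12 under the same settings and ranged from 0 to 10 without 1 array. The array scaling undone gave 133 calls, 92 of them shared, and quantile normalisation 114, with 106 shared. For Max Dep against Min Dep the count was 0 in all settings except without Max Dep replicate 1 (2, Gpr137b and Sprr1b) and without Max Dep replicate 3 (1, 2310061I04Rik); leaving out 1 array ranged from 0 to 2. Of 1722 values of the 110 probe sets tracked from the report, 1716 kept their direction, 709 lost a call and 5 gained one. The kept directions are no measure of robustness, since many were fixed in advance. A difference of group means cannot change with the 6 arrays alone, with eBayes moderation or without a Max Dep array, and neither can a list median. Leaving out 1 array also cannot reverse a probe set whose groups do not overlap. With gene means the difference became -0.67 for the Myh6 probe set at 0.51 and -0.89 for Tmsb10. The Psmb3 probe set at -0.04 turned to 0.15 with the scaling undone, and lay between -0.38 and 0.49 when 1 array was left out (0.0 and 0.27 without sham replicates 2 and 3, 0.49 without Min Dep replicate 2). Of 784 list medians 69 moved by over 1 SD of the array means and 17 of these changed sign. The cause was not tested. No paired analysis was possible because each array carries its own code and the labels link no sham array to a CLP array.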

Other observations

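Cell death genes were separated about as often as all probe sets, 8 of 56 upward (14.3%, against 10.5%) and 10 downward (17.9%, against 14.1%), with a median of 0.49. The probe sets named here are the extremes of this list. Bcl2l11, which encodes the death promoter BIM, was separated upward on the 2 highest of its 5 probe sets (2.07 ± 0.49 and 1.96 ± 0.36, SE, adjusted p = 0.123 and 0.079, limma). Its protein's antagonist gene Bcl2l1 was at -2.24 ± 0.52 on the lowest of its 4 probe sets. The caspase inhibitor gene Xiap was at -1.99 ± 0.58 on the lowest of its 6, and none of these passed.

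The probe sets named among iron genes are extremes of the list. Tfrc, the transferrin receptor that takes iron in, was at -2.34 ± 0.36 and -2.23 ± 0.43 (the lowest of its 3 probe sets, adjusted p = 0.0633 and 0.0834). Fth1, the ferritin heavy chain that stores iron, was at 1.77 ± 0.39 on the higher of its 2 probe sets (adjusted p = 0.111). On the probe sets given here the 3 Min Dep hearts were clear of the 3 sham hearts. Of the 26 probe sets 6 (23.1%) were separated in each direction, against 10.5% upward and 14.1% downward over all probe sets.

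Among clock genes Nr1d1, a repressor that peaks by day in mouse tissues, was lowest (0.94, 1.54 and 1.68 in sham; -0.96, -1.48 and -0.19 in Min Dep; -2.26 ± 0.37, adjusted p = 0.0668), and the opposing-phase repressor Cry1 highest (1.72 ± 0.54, adjusted p = 0.196). The sources used here do not give the hour of day at which hearts were taken. Immediate early genes lay lower, with 9 of 32 probe sets (28.1%) separated downward and none upward (median -0.75). The shares over all probe sets were 14.1% downward and 10.5% upward. The lowest were Klf6 (-2.02 ± 0.69) and the stress factor Atf3 (-2.00 ± 0.61), neither of which passed.

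The beta subunit of the sodium pump, Atp1b1, was the lowest of the channel and gap junction genes (-2.37 ± 0.46 and -2.15 ± 0.64, the lowest of its 5 probe sets). The extremes of the autophagy list were Becn1, on the lowest of its 4 probe sets (-2.34 ± 0.37), and Gabarap (1.93 ± 0.36). Becn1 and Gabarap were short of the threshold at adjusted p = 0.0667 and 0.0795.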
